A study of Mus musculus with 15 samples.

Results

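The immediate early activation genes described here are 10 mouse genes, chosen by name: Fos, Fosb, Jun, Junb, Egr1, Egr2, Egr3, Nr4a1, Nr4a3 and Ier2. Each was read by 1 array feature annotated to that gene alone, so that 10 of the 19752 genes measured are members. They were measured in splenic regulatory T cells (Treg), the Foxp3-expressing T cells that restrain immune responses, from 6-week-old male mice. The cells of all 15 arrays carried Foxp3EGFPCre, which makes Cre recombinase in Foxp3-expressing cells. The 3 N1c_RBPJdel arrays combined R26N1c/N1c, a Cre-activated form of the intracellular part of Notch1, with RBPJ∆/∆, the loss of RBPJ, the DNA-binding partner of Notch. The 4 N1c arrays carried R26N1c/N1c alone, the 4 RBPJdel arrays RBPJ∆/∆ alone, and the 4 control arrays Foxp3EGFPCre alone. Cells were sorted for CD3, TCR beta, CD4 and Foxp3-linked GFP, with cells bearing CD8, B220, CD11b, CD11c or Gr1 left out, and each array held RNA of cells pooled from several mice. The sorter was a FACSAria for N1c_RBPJdel and a MoFlo for the other genotypes, so sorter and genotype cannot be told apart wherever N1c_RBPJdel is compared. The sample titles number the arrays, 1 to 3 for N1c_RBPJdel, 1, 2, 4 and 5 for N1c, 1 to 4 for RBPJdel and 2 to 5 for control. They do not say what arrays of 1 number share.

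Immediate early genes are transcribed within minutes of a stimulus, without new protein having to be made first. In T cells the main stimulus is the antigen receptor, which acts through kinases on the transcription factors SRF and CREB and through calcium on NFAT. The products of Fos, Fosb, Jun and Junb pair into AP-1, EGR proteins are zinc finger factors, and NR4A proteins are orphan nuclear receptors that help to maintain Treg. Serum, growth factors and cell stress also induce many of these genes.

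Values are the authors' RMA intensities on a linear scale. Changes are differences of group means of log2 intensity with the standard error (SE) of limma, and a gene is called where its p adjusted over all 19752 genes is below 0.05. The median gene had an intensity of 108.9, and each member averaged above it, between 204.7 for Ier2 and 1154 for Nr4a1. Intensities of different genes were not compared, since probes differ. The Treg markers fixed for the check were high on every array (summed intensity of 8 genes 28066 to 35302), the geometric mean of Rbpj was 209 in N1c_RBPJdel, 521 in N1c, 267 in RBPJdel and 497 in control arrays, and Hes1, a Notch target, averaged 626 in N1c against 65.6 in control arrays. The cells are bulk samples, so more RNA per cell and more cells with the RNA cannot be told apart in any value below.

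Promoter sequences are shown for the 4 AP-1 members, whose levels went together over the arrays, and for Egr2 and Nr4a1, whose levels on arrays numbered 4 or 5 overlapped those on the other arrays. Windows of RefSeq (GRCm38.p6) were used for 7 of the 10 members, Fos, Fosb, Jun, Junb, Egr2, Nr4a1 and Nr4a3. Each window runs from 250 bases before the annotated start to 50 bases from the start on, on the strand of the gene. Capitals mark TGACG on either strand, the core shared by sites of CREB-type factors, the AP-1 type motif TGACNTCA, and the CArG box, the site of SRF. The windows are chr12:85473640-85473939 (plus strand) for Fos, chr7:19309996-19310295 (minus) for Fosb, chr4:95052173-95052472 (minus) for Jun and chr8:84978699-84978998 (minus) for Junb. Those of Egr2 and Nr4a1 are chr10:67537619-67537918 (plus) and chr15:101266596-101266895 (plus).
Fos: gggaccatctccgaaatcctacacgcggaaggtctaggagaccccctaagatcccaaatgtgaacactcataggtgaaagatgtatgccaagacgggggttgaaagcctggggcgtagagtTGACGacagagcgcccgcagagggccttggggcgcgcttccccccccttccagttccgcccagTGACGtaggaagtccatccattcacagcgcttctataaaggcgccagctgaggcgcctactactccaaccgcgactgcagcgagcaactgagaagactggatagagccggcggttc
Fosb: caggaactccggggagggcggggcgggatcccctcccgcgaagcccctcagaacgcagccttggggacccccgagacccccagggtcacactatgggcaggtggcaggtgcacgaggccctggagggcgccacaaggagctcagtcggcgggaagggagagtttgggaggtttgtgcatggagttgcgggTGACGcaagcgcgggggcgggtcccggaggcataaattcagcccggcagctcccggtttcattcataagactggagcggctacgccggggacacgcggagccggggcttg
Jun: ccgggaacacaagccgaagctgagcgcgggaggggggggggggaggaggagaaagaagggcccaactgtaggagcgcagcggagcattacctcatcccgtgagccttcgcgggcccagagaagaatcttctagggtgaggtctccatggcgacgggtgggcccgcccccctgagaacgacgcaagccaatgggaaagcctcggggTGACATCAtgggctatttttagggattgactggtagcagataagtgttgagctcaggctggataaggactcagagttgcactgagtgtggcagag
Junb: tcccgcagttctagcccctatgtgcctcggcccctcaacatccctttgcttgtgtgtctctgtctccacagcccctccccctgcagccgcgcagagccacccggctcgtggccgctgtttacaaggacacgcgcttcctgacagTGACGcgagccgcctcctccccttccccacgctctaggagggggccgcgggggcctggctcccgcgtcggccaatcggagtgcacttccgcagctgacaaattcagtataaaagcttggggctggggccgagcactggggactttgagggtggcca
Egr2: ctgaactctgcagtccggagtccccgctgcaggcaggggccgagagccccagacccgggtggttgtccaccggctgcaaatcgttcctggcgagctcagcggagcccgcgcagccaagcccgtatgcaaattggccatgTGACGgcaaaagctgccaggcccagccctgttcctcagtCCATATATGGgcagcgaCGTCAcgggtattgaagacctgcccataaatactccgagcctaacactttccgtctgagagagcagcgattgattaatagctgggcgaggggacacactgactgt
Nr4a1: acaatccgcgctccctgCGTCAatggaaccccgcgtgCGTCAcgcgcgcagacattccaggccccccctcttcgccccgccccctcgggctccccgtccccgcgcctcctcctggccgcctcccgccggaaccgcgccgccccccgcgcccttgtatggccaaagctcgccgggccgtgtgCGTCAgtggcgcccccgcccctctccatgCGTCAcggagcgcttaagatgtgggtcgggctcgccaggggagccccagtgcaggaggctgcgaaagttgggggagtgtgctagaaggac
TGACG was found in 6 of the 7 members with a window and in 20.8% of all 32851 RefSeq windows of this length. These are unlike units, since a member counts where any of its windows matches. Egr2 has 5 windows, not all with TGACG. Counting the start as 0, its first base lay at -129 and -66 in Fos, at -60 in Fosb, at -106 in Junb, at -111 and -55 in the Egr2 window shown, and at -233, -213, -69 and -40 in Nr4a1. Nr4a3 held it 4 times, and Jun had no TGACG but held TGACNTCA at -45, a motif of 8.83% of all windows. A CArG box was found at -72 in the Egr2 window shown and in 1.63% of all windows. Egr2 has 5 windows, 4 of them with a CArG box, though not all with the same string of letters. Bases more than 250 before a start were not searched, so a site there would be missed for any member. The EGR motif GCGNGGGCG was found in Fosb at -50 and Nr4a1 at -60 (5.55% of all windows), the RBPJ core TGGGAA only in Jun at -61 (25.6%), and the AP-1 motif TGANTCA in none of the members' windows (7.81%). Both strands were searched for each motif, TGACG and TGACNTCA can overlap, and a match is a string of letters and not a shown binding site.

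Fos, the partner of the Jun proteins in classical AP-1, had intensities of 164.9, 146.5 and 157.1 in N1c_RBPJdel arrays 1, 2 and 3. In N1c arrays 1, 2, 4 and 5 it had 149.7, 116.5, 1988 and 1297. In RBPJdel arrays 1 to 4 it had 183.9, 105.7, 97.6 and 737.8, and in control arrays 2 to 5 it had 88.4, 89.1, 1264 and 740.2. Every array numbered 4 or 5 was high and every other array low, in each of the 3 genotypes that have such arrays, and N1c_RBPJdel, which has none, was low throughout. Fosb, a close relative of Fos, divided the same way. It had 155.7, 140.0 and 142.7 in N1c_RBPJdel, 156.7, 136.6, 2088 and 1393 in N1c, 160.1, 133.3, 119.3 and 398.1 in RBPJdel, and 122.2, 138.2, 869.4 and 540.5 in control arrays, in the order of their numbers.

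Jun, the protein that pairs with Fos, had 827.2, 673.9 and 409.6 in N1c_RBPJdel, 656.1, 499.8, 2750 and 1892 in N1c, 482.0, 212.7, 263.1 and 2220 in RBPJdel, and 161.4, 221.9, 2502 and 1449 in control arrays. The arrays numbered 4 or 5 again stood above all others. Below them Jun, unlike Fosb, varied widely between arrays, and number and genotype were partly mixed there. Among these lower arrays, the array numbered 1 was the highest in every genotype that has one, and control has none. On the arrays numbered 2, which every genotype has, Jun had 673.9 in N1c_RBPJdel, 499.8 in N1c, 212.7 in RBPJdel and 161.4 in control. Junb, a Jun relative with weaker activating capacity, had 489.3, 639.4 and 432.8 in N1c_RBPJdel, 499.7, 372.6, 1372 and 855.7 in N1c, 499.7, 340.9, 395.1 and 657.8 in RBPJdel, and 344.5, 311.7, 991.5 and 771.5 in control arrays. Its gap between the arrays was the smallest of the 4. Ier2, a short-lived nuclear protein gene, had 140.3, 191.7 and 156.8 in N1c_RBPJdel, 208.9, 225.6, 319.2 and 208.9 in N1c, 186.1, 171.0, 146.2 and 271.7 in RBPJdel, and 191.9, 155.9, 375.9 and 246.6 in control arrays. It leaned the same way, with overlap: the N1c array numbered 5 lay at the level of the N1c array numbered 1.

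**Figure D1:**
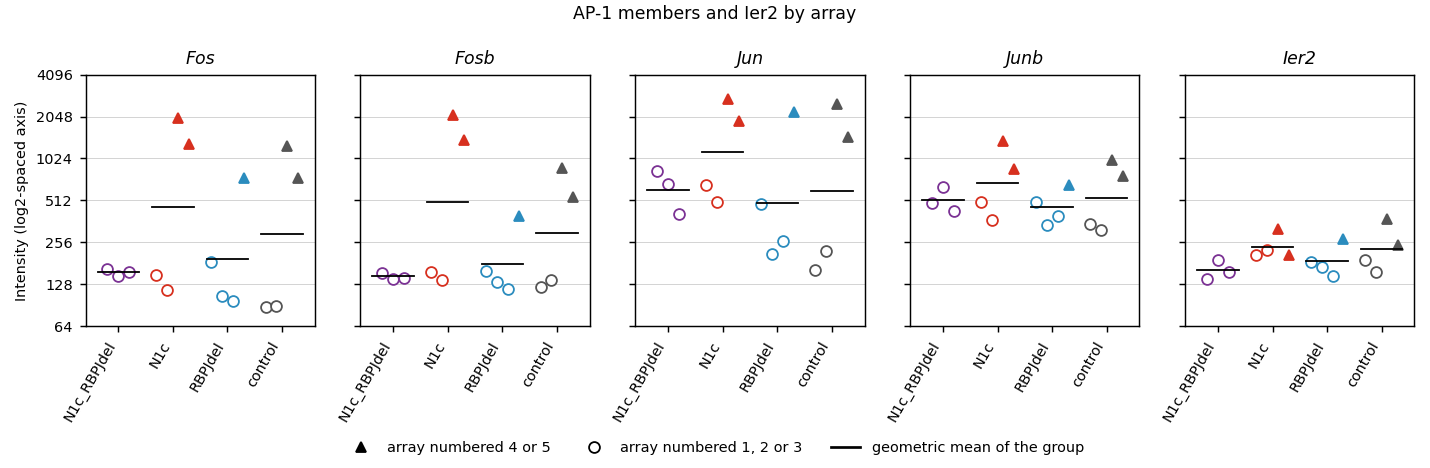
Intensity of Fos, Fosb, Jun, Junb and Ier2 on each of the 15 arrays (vertical axis spaced by log2), by genotype. Filled triangles are arrays numbered 4 or 5, open circles those numbered 1, 2 or 3, and bars geometric means; for the 4 AP-1 members every triangle lies above every circle of the MoFlo arrays, and N1c_RBPJdel has circles only.

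Among the 12 MoFlo arrays, the 5 numbered 4 or 5 exceeded the 7 numbered 1 to 3 by 9.79-fold for Fos, 6.45-fold for Fosb, 6.67-fold for Jun and 2.31-fold for Junb, as ratios of geometric means. The lowest of the 5 exceeded the highest of the 7 by 4.01-fold for Fos, 2.49-fold for Fosb, 2.21-fold for Jun and 1.32-fold for Junb. This division of the arrays was noticed in these data, so it is described without a test. All 5 arrays lay above all 7 for these 4 of 10 members, against 0.871% of all genes (172 of 19752). A gap of more than 2-fold between lowest and highest was found for 8 genes, 0.0405% of all: Fos, Fosb, Jun, Dusp1, Ppp1r15a, Rgs2, and the intestinal genes Fabp2 and Zg16. The difference was present within each MoFlo genotype. For Fos it was 12.2-fold in N1c, 5.96-fold in RBPJdel, which has 1 array numbered 4 and none numbered 5, and 10.9-fold in control arrays. What the numbers stand for, and whether it is the reason for the difference, was not tested.

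The spread between arrays of 1 genotype shows the same. Fos had a pooled within-genotype standard deviation of 1.68 on the log2 scale, rank 1 of the 19752 genes, Jun 1.45 (rank 6) and Fosb 1.37 (rank 7), against a median of 0.169 over all genes. Junb ranked 81 and Ier2 432. The EGR and NR4A members lay much lower, between 0.20 for Egr1 and Egr3 and 0.28 for Nr4a1. Among the arrays numbered 1 to 3 alone, Fosb fell to 0.153, close to the median of 0.154, while Jun kept 0.50 (rank 77) and Fos 0.31 (rank 839).

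**Figure D2:**
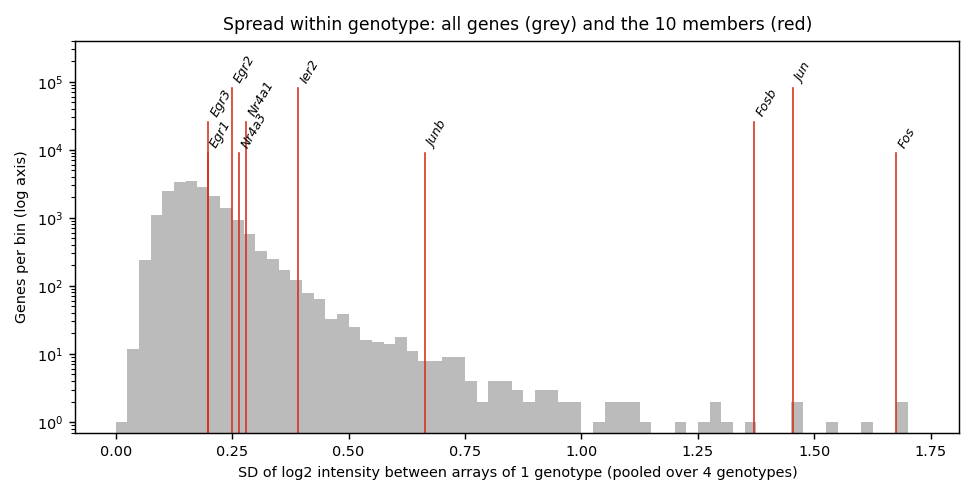
Within-genotype standard deviation of log2 intensity (horizontal axis) against the number of genes per bin of that standard deviation (log axis), with the 10 members as red lines. Fos, Jun and Fosb lie at the far right of all genes, Junb and Ier2 in the tail, and the EGR and NR4A members within the bulk.

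The EGR members did not follow the AP-1 members. Egr1, an activator induced by the ERK pathway, had 390.6, 680.1 and 437.0 in N1c_RBPJdel, 682.6, 621.0, 729.9 and 756.6 in N1c, 557.9, 504.7, 486.8 and 518.4 in RBPJdel, and 513.2, 523.9, 539.2 and 528.3 in control arrays. All N1c arrays lay above all RBPJdel and control arrays, whose values were close together. Egr2, an NFAT target linked to restraint of T cell activation, had 584.7, 843.5 and 564.7 in N1c_RBPJdel, 852.5, 863.9, 659.6 and 809.6 in N1c, 562.1, 586.8, 586.7 and 519.0 in RBPJdel, and 676.5, 753.0, 445.4 and 523.3 in control arrays. Within N1c, RBPJdel and control the arrays numbered 4 or 5 were its lower ones. Egr3, a relative of Egr2, had 205.9, 312.8 and 244.7 in N1c_RBPJdel, 330.3, 320.0, 262.1 and 266.0 in N1c, 309.5, 326.4, 297.7 and 283.3 in RBPJdel, and 311.0, 325.6, 274.1 and 234.2 in control arrays. It was the 1 member with all 5 MoFlo arrays numbered 4 or 5 below all 7 others, by 0.831-fold, a pattern of 1.45% of all genes.

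Nr4a1, a reporter of antigen receptor signalling, had 947.3, 1132 and 715.4 in N1c_RBPJdel, 1125, 1135, 2154 and 1335 in N1c, 944.3, 1051, 966.9 and 1095 in RBPJdel, and 1202, 1316, 1386 and 1329 in control arrays. One value stood out, that of N1c array 4. All RBPJdel and N1c_RBPJdel arrays lay below all control arrays, and so did N1c arrays 1 and 2. Nr4a3, its relative, had 389.1, 638.1 and 441.4 in N1c_RBPJdel, 450.5, 414.1, 617.1 and 614.3 in N1c, 423.7, 370.5, 376.9 and 433.8 in RBPJdel, and 357.9, 459.5, 441.4 and 545.4 in control arrays. The genotypes overlapped for Nr4a3. On the MoFlo arrays numbered 4 or 5, Nr4a1 and Nr4a3 each leaned higher than on those numbered 1 to 3, by 1.29-fold. The arrays overlapped for both, and Nr4a3 had 433.8 to 617.1 against 357.9 to 459.5. N1c_RBPJdel array 2 was the highest of its group for Egr1, Egr2, Egr3, Nr4a1, Nr4a3, Junb and Ier2, but not for Fos, Fosb or Jun.

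**Figure D3:**
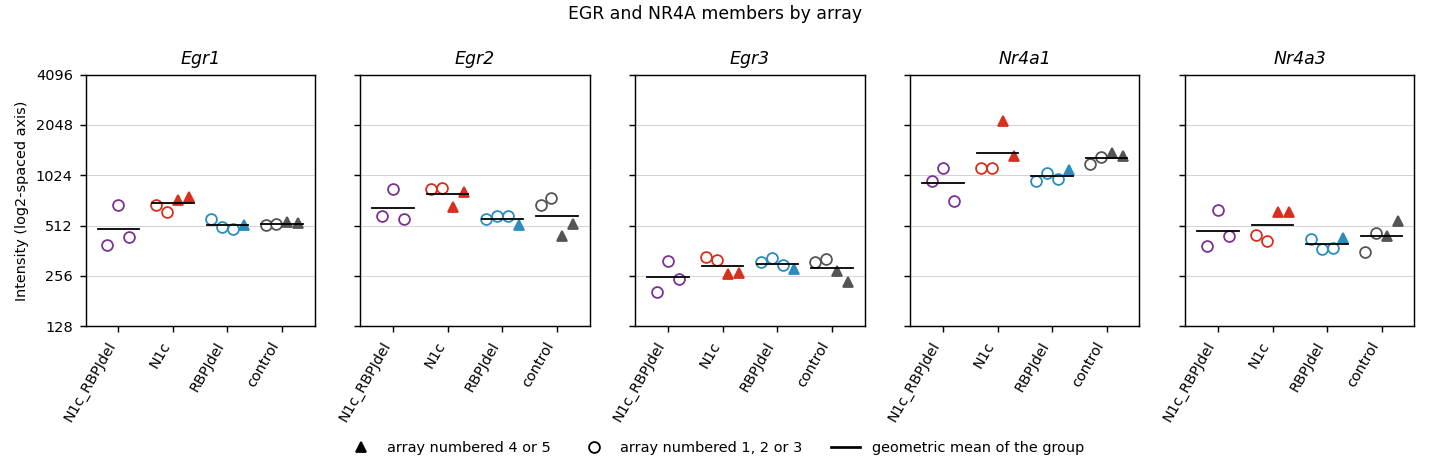
Intensity of Egr1, Egr2, Egr3, Nr4a1 and Nr4a3 on each array (vertical axis spaced by log2), with the same symbols as for the AP-1 members. Triangles and circles mix for all 5 genes, although for Egr3 the MoFlo triangles lie below the MoFlo circles. For Nr4a1 and Nr4a3 the MoFlo triangles lean higher, with overlap. All N1c arrays exceed all control arrays for Egr1, and all RBPJdel arrays lie below all control arrays for Nr4a1.

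N1c was set against control to ask which genes active Notch1 changes in Treg. Over the 4 and 4 arrays 0 of the 10 members passed the test, against 1.65% of all genes (326 of 19752). All 10 differences were above 0, with a median of 0.38 log2 against -0.01 over all genes. The median was 0.08 without N1c array 4, 0.20 without N1c array 5, 0.12 without control array 2 and 0.17 without control array 3. Egr1 was 0.40 ± 0.13 higher (SE, n = 4 and 4, adjusted p = 0.207) and Egr2 0.43 ± 0.16 (adjusted p = 0.307). Egr1 was the 1 member with every N1c array above every control array, against 2.90% of all genes. For Fos the difference was 0.65 ± 0.95, for Fosb 0.74 ± 0.78 and for Jun 0.93 ± 0.83, so that the SE was close to or above the difference.

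N1c and control arrays of the same number deviated together (r between deviations from genotype means 0.341 to 0.497), and by that rule they were paired. The r was not particular to the number. N1c array 1 with control array 2 (0.371) and N1c array 2 with control array 3 (0.350) reached similar values. N1c and RBPJdel reached 0.457 at number 4 but missed the rule at number 2 (0.081). Whether the number itself ties arrays together was not tested. In the 3 pairs, numbered 2, 4 and 5, Fos had 1.32, 1.57 and 1.75 times the control intensity in N1c, Fosb 1.12, 2.40 and 2.58 times, and Jun 3.10, 1.10 and 1.31 times. Egr1 had 1.21, 1.35 and 1.43 times and Egr2 1.28, 1.48 and 1.55 times the control level. N1c was thus above control in all 3 pairs for these 5 members, and for Junb and Nr4a3, 7 of 10 members in all, against 15.4% of all genes. Egr3, Nr4a1 and Ier2 had at least 1 pair on each side. In a fit of these 6 arrays with the number as a block, added after the data were seen, 2 of 10 members were called, against 1.96% of all genes. Fos rose by 0.62 ± 0.11 (limma, adjusted p = 0.0220) and Egr2 by 0.52 ± 0.10 (adjusted p = 0.0366), while Fosb (0.93 ± 0.20, adjusted p = 0.0607) and Egr1 (0.41 ± 0.10, adjusted p = 0.0821) were not called. With the block fitted over all 4 genotypes Fos differed by 0.55 (adjusted p = 0.288) and Egr2 by 0.46 (adjusted p = 0.0948), and 0 members were called, against 2.50% of all genes. Over all settings tried, the adjusted p of Fos ran from 0.0220 to 1.00 and that of Egr2 from 0.0366 to 1.00.

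Comparing RBPJdel with control asked what the loss of RBPJ changes. Of the members 0 were called, against 0.111% of all genes (22), and 9 of 10 differences were below 0, with a median of -0.25 against 0.03 over all genes. RBPJdel has only 1 array numbered 4 or 5 where control has 2. The median was -0.03 without control array 4, -0.09 without control array 5, -0.10 without RBPJdel array 2 and -0.14 without RBPJdel array 3. It was -0.40 without RBPJdel array 4, -0.39 without control array 2 and -0.42 without control array 3. On the arrays numbered 1 to 3 the median was -0.02, and the difference was 0.48 for Fos and 0.66 for Jun, against -0.60 and -0.28 on all arrays, and none was called there (0.0253% of all genes). Control has no array numbered 1. RBPJdel array 1 lay above RBPJdel arrays 2 and 3 for Fos (183.9 against 105.7 and 97.6) and Jun (482.0 against 212.7 and 263.1). Nr4a1 was 0.37 ± 0.17 lower (n = 4 and 4, adjusted p = 0.733), with all RBPJdel arrays below all control arrays, a pattern of 3.08% of all genes. Between N1c and RBPJdel 0 members were called, against 2.50% of all genes (494). Egr1 was 0.43 ± 0.13 higher in N1c (adjusted p = 0.122), Egr2 0.49 ± 0.16 (adjusted p = 0.146) and Nr4a1 0.45 ± 0.17 (adjusted p = 0.283), and for these 3 of 10 members every N1c array lay above every RBPJdel array, against 3.85% of all genes.

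Comparing N1c_RBPJdel with N1c asked what loss of RBPJ does where Notch1 is active. Here 1 of 10 members was called, against 9.23% of all genes (1823), and all 10 differences were below 0, with a median of -0.53 against 0.02. N1c_RBPJdel has no array numbered 4 or 5 where N1c has 2, and on the arrays numbered 1 to 3 the median was -0.15. Egr1 fell by 0.51 ± 0.14 on the log2 scale (n = 3 and 4, adjusted p = 0.0324), with overlap, since N1c_RBPJdel array 2 lay above N1c array 2. It remained past the threshold in 15 of 25 other settings, with an adjusted p of 0.000330 to 0.174 over the 25. Most of these 15 left the difference itself at -0.51. They dropped an array of RBPJdel or control, which are not compared here, or changed only the gene set, feature averaging or variance estimate. Egr1 was not called without N1c_RBPJdel array 1 or 3 or without N1c array 1, 4 or 5 (adjusted p = 0.174, 0.108, 0.0667, 0.069 and 0.0529). Nor was it called with quantile normalization (adjusted p = 0.101), cyclic loess (0.0959), the compared genotypes alone (0.151), the number as a block (0.0625) or the arrays numbered 1 to 3 (0.151). Nr4a1 differed by -0.60 ± 0.19 (adjusted p = 0.0536) and Ier2 by -0.55 ± 0.25 (adjusted p = 0.171). Every N1c_RBPJdel array lay below every N1c array for Ier2 alone, against 8.42% of all genes. Fos differed by -1.56 ± 1.03 (adjusted p = 0.356) and Fosb by -1.77 ± 0.84 (adjusted p = 0.189), but on the arrays numbered 1 to 3 the values were 0.24 and -0.00. Summed marker intensities were also higher in N1c_RBPJdel than in N1c for B cells (677 to 982 against 542 to 603), neutrophils (462 to 560 against 332 to 424) and erythroid cells (462 to 1261 against 278 to 364), of which 6 of 7, 7 of 7 and 2 of 4 genes lay below the median gene. Their part in these differences was not tested.

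Comparing N1c_RBPJdel with control called 0 members, against 8.90% of all genes (1757). Nr4a1 was 0.51 ± 0.19 lower (n = 3 and 4, adjusted p = 0.0915), with all N1c_RBPJdel arrays below all control arrays, as for 9.57% of all genes. Jun differed by 0.03 ± 0.89 over all arrays. On the arrays numbered 1 to 3, which leave 3 N1c_RBPJdel and 2 control arrays, Jun rose by 1.69 ± 0.33 (limma, adjusted p = 0.0123) and Fos by 0.81 ± 0.22 (adjusted p = 0.0394), so that 2 of 10 members were called there, against 9.31% of all genes. The Jun intensities behind this were 827.2, 673.9 and 409.6 against 161.4 and 221.9. Of these, 827.2 was from array 1, a number that control lacks. For Fos the direction is opposite to that over all arrays, -0.91 ± 1.03. This choice of arrays was made after the data were seen, and the sorter differs between these groups as well. Between N1c_RBPJdel and RBPJdel 0 members were called (2.29% of all genes, 452), and 0 in the interaction (0.840%, 166), which asks whether active Notch1 acts differently without RBPJ. Egr1 had an interaction of -0.48 ± 0.19 (adjusted p = 0.292).

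**Figure D4:**
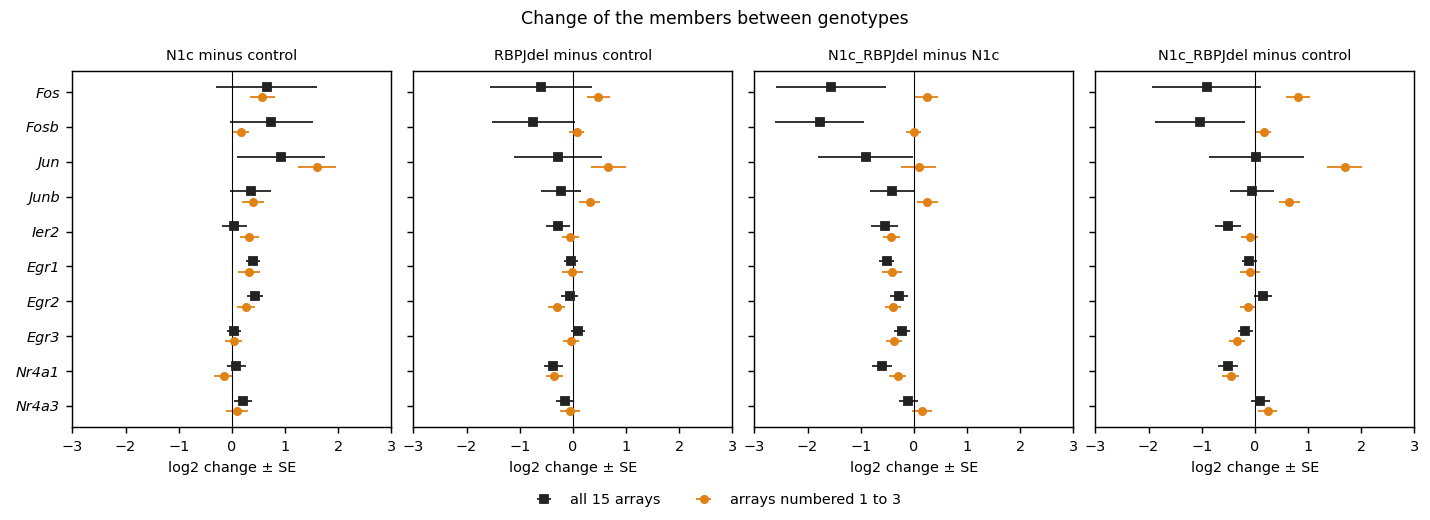
Differences of group means in log2 intensity (horizontal axis, with SE) for the 10 members in 4 comparisons, from all 15 arrays (black squares) and from the 10 arrays numbered 1 to 3 (orange circles). The bars of Fos, Fosb and Jun are long over all arrays and shorter on the arrays numbered 1 to 3, where Jun and Fos lie above 0 in N1c_RBPJdel minus control.

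Other genes of the same pathways were counted from lists. Of 20 other immediate early genes, 8 were higher on all 5 MoFlo arrays numbered 4 or 5 than on all 7 numbered 1 to 3, against the 0.871% of all genes given above: Ppp1r15a, Rhob, Gadd45b, Btg2, Klf4, Klf6, Arc and Ier3. Ppp1r15a, which restores translation after stress, had 548.0 to 1340 on the 5 arrays and 164.7 to 244.0 on the 7. Of 20 genes induced by the antigen receptor, 6 did so (Rgs2, Tnfaip3, Cd69, Nfkbia, Tagap and Nr4a2). Rgs2, a brake on G protein signalling, had 899.7 to 1375 against 109.8 to 234.9, and Tnfaip3, an inhibitor of NF-κB, 946.5 to 2072 against 497.9 to 584.3. The activation marker Cd69 had 1862 to 4349 against 1087 to 1795. Of 6 dual specificity phosphatases, which switch off MAP kinases, 1 did so, Dusp1, with 2797 to 4688 against 832.9 to 1314. None of 10 other AP-1 family genes and none of 6 genes of SRF and its cofactors did so. The list of Egr4, Nr4a2, Nab1 and Nab2 had 1, Nr4a2 again. Of 8 Treg markers none was higher on all 5, and Cd4 was lower, with 1619 to 2877 against 3089 to 3813. Cd4 was as low on the N1c_RBPJdel arrays, numbered 1 to 3, with 1672 to 2454.

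Of 10 measured heat shock genes 2 did so, Hspa1a and Dnajb4. Dnajb4 had 410.8 to 969.9 on the 5 arrays, 184.7 to 275.0 on the 7 and 300.4 to 363.4 in N1c_RBPJdel. Hspa1a, the inducible Hsp70, had 454.7, 361.8 and 328.2 in N1c_RBPJdel, 74.2, 92.9, 145.4 and 241.3 in N1c, 92.5, 105.0, 104.6 and 1786 in RBPJdel, and 96.3, 97.4, 2175 and 250.8 in control arrays. Its order was not that of Fos: N1c array 4, the highest for Fos, had the lowest Hspa1a of the 5, and N1c_RBPJdel, low in Fos, exceeded 3 of the 5. The summed myeloid markers were 1560 to 1833 on the 5 arrays and 1308 to 1580 on the 7. Most of that sum was Ctss, which overlapped, with 849.1 to 1227 against 775.7 to 1121. Cd68 leaned most, by 1.77-fold, with overlap (105.3 to 334.0 against 98.3 to 161.8). Csf1r alone of these markers was lower on the 5 arrays, by 0.990-fold. Of the 9 myeloid markers 0 were higher on all 5 arrays than on all 7, and 7 lay below the median gene. The part of other cells in the division was not tested.

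**Figure D5:**
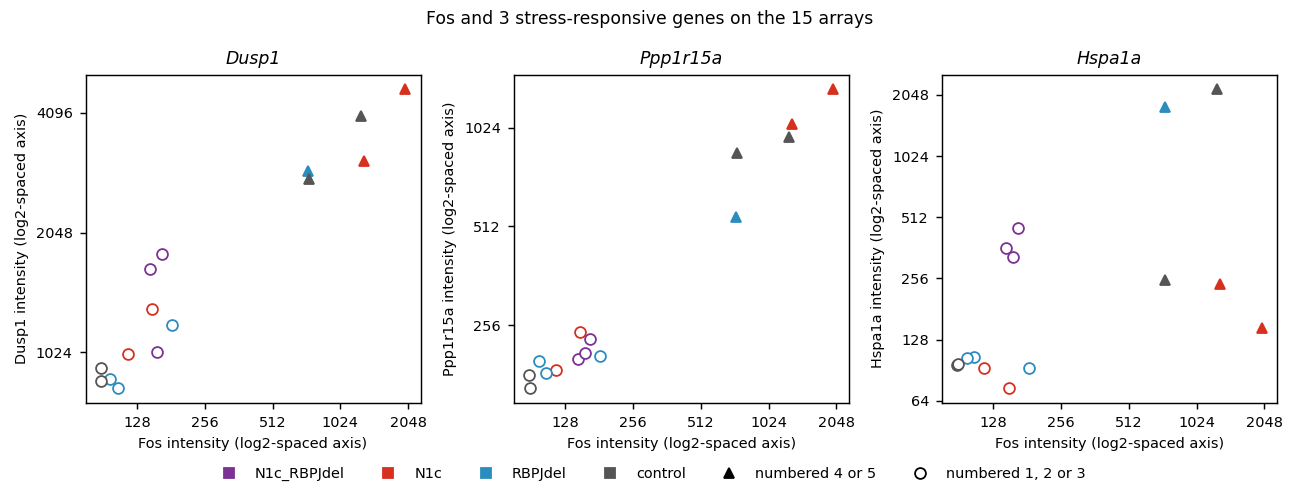
Intensity of Fos (horizontal axis) against Dusp1, Ppp1r15a and Hspa1a (vertical axes, all spaced by log2) on the 15 arrays, coloured by genotype. Arrays numbered 4 or 5 form a separate group at the upper right for Dusp1 and Ppp1r15a, whereas Hspa1a does not rise with Fos among them.

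Between genotypes, few list genes were called. In N1c against control these were 1 of 20 other immediate early genes, Nfil3, a repressor that regulates cytokine and clock genes (0.99 ± 0.20 higher, adjusted p = 0.0101), and 1 of 20 receptor-induced genes, Myc, the growth regulator (0.54 ± 0.13 lower, adjusted p = 0.0496), where 1.65% of all genes were called. Nfil3 had 299.0, 308.8, 532.4 and 543.8 in N1c arrays and 187.1, 179.7, 211.4 and 241.4 in control arrays, with no overlap. In RBPJdel against control 0 genes of these 7 lists were called. In N1c_RBPJdel against N1c, where 9.23% of all genes were called, 4 of 20 other immediate early genes fell, by 1.33 ± 0.23 for Sgk1, a serum- and glucocorticoid-induced kinase (adjusted p = 0.00215), 1.05 ± 0.21 for Nfil3 (adjusted p = 0.00565), 1.03 ± 0.31 for Zfp36, which destabilises mRNA (adjusted p = 0.0454), and 0.57 ± 0.11 for Btg1, an antiproliferative factor (adjusted p = 0.00496). The median of that list was -0.37, against 0.02 over all genes and -0.53 for the members. Of the receptor-induced genes Bhlhe40, a repressor active in T cells, was 1.01 ± 0.23 lower (adjusted p = 0.0135) and Tnfrsf4, a co-stimulatory receptor, 0.48 ± 0.09 higher (adjusted p = 0.00357), and the EGR corepressor Nab1 was 0.41 ± 0.12 lower (adjusted p = 0.0481). N1c against RBPJdel, with 2.50% of all genes called, had 3 of the 20 other immediate early genes called, all higher in N1c: Nfil3 (1.40 ± 0.20, adjusted p = 0.000272), Sgk1 (1.17 ± 0.22, adjusted p = 0.00426) and Btg1 (0.42 ± 0.10, adjusted p = 0.0382). N1c_RBPJdel against control, with 8.90% of all genes called, had 4 called list genes, and 3 of the 7 lists had none. Called were 1 of 20 other immediate early genes, Btg1 (-0.46, adjusted p = 0.0190), and 1 of 6 phosphatase genes, Dusp4 (-0.73, adjusted p = 0.0142). So were 1 of 6 genes of SRF and its cofactors, Elk4 (-0.56, adjusted p = 0.00644), and 1 of 20 receptor-induced genes, the interferon regulatory factor gene Irf8 (0.84, adjusted p = 0.00758). N1c_RBPJdel against RBPJdel, with 2.29% of all genes called, had 1 called list gene. It was 1 of the 20 receptor-induced genes, Cd83, a surface protein of activated cells (0.63, adjusted p = 0.0395). B cells also express Irf8 and Cd83. Of 7 measured B cell markers 3 were called higher in N1c_RBPJdel than in control, and 2 in N1c_RBPJdel than in RBPJdel, with Ms4a1 higher by 0.95 and 0.91. The summed B cell markers were 677 to 982 in N1c_RBPJdel, 675 to 784 in RBPJdel and 593 to 670 in control arrays. The largest part of these sums was 1 gene, Cd79b, with 324.0 to 656.3 in N1c_RBPJdel. On the MoFlo arrays, N1c among them, Cd79b had 298.0 to 497.2 (numbered 1 to 3) and 312.8 to 434.9 (numbered 4 or 5). Cd79a had at least 50.1 in N1c_RBPJdel and at most 39.3 on the MoFlo arrays. Ms4a1 had at least 44.2 and at most 35.8. The other measured B cell markers overlapped. The part of B cells in the differences of Irf8 and Cd83 was not tested.

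The genes whose log2 values were most like the mean of the members over the 15 arrays were Hexim1 (r = 0.960), Plk2 (0.940), Atf4 (0.936), Ypel5 (0.920), Siah2 (0.912) and Dnajb9 (0.890). With genotype means removed they were Hexim1 (0.973), Rrad (0.963), Irs2 (0.956), Zg16 (0.948), Plk2 (0.945) and Hspa2 (0.938). Since the arrays fall into 2 clusters of levels, these values mainly describe that division. Fos, Jun and Fosb varied most among the members and so weigh most in their mean. Egr2 and Egr3 ran against Fos with genotype means removed (r = -0.73 and -0.67). Nr4a1 and Nr4a3 ran with Fos (r = 0.57 and 0.62). All 10 of the genes most like the members' mean were higher on all 5 MoFlo arrays numbered 4 or 5 than on all 7 others. None was called between genotypes in any of the 7 comparisons. Both follow largely from how the genes were chosen. Plk2, a stress-induced kinase, had 71.3 to 338.0 on the 5 MoFlo arrays and 34.4 to 50.3 on the 7.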

How the data were processed

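The 15 arrays are Affymetrix Mouse Gene 1.0 ST arrays. The deposited values are intensities. Per the submitters' processing notes, the authors used Affymetrix Power Tools and RMA, with versions, annotation release and filters not given in the sources used here. They ran from 5.61 to 18029.7, with array medians of 107.1 to 117.2, which is linear, so log2 was taken and nothing else changed. Of 24922 features 21425 named 1 gene, 1399 several and 2098 none. For 921 genes with several features the brightest was kept, which left 19752 genes, none removed for low intensity. The number of arrays limits the precision.

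The 4 genotypes entered 1 linear model (limma 3.58.1, R 4.3.3) as 1 mean each, over 15 arrays (11 residual and 6.15 prior degrees of freedom). The test was two-sided, adjusted by Benjamini-Hochberg over 19752 genes within each of 7 comparisons, with a threshold of 0.05, and was tested on simulated data. A p-value reflects only how arrays of pooled cells vary. Comparisons that share arrays are not independent.

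The members, gene lists and alternatives were chosen with earlier results of these data known. Named by rule besides the members are up to 3 called genes per list and comparison by smallest p, the 6 most like the members' mean by each of 2 measures, and Rbpj and Hes1 as a check. Named after their values were seen are Zfp36, Fabp1, Fabp2, Anpep, Cd4 and the B cell markers named. So are all list genes named for their levels by array number. Arrays of the same number in different genotypes were taken as paired where r between their residuals exceeded 0.1 for each number. N1c and control met this (0.341 to 0.497 for 3 numbers), the other pairs of genotypes did not. Promoter windows are those of RefSeq, GRCm38.p6. Alternatives were run 1 at a time, 24 planned and 3 added after the data were seen.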

Additional observations from a re-analysis of the deposited data

How the results depend on the processing

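Of the 70 member differences (10 members, 7 comparisons) 1 was called, and 11 were called under at least 1 alternative. Of 1780 values under alternatives 102 had the opposite sign. The 1 called with the opposite sign was Fos in N1c_RBPJdel against control on arrays numbered 1 to 3 (0.81, against -0.91), where the excluded control arrays were the high ones. Members called in N1c against control numbered 0, but 1 with the compared groups alone and with array weights (Egr1), 2 in the fit of N1c and control arrays 2, 4 and 5 with the replicate block, and 0 to 1 leaving out 1 array. In N1c against RBPJdel they numbered 0, but 2 with the compared groups alone and with array weights (Egr1, Egr2), 1 with the replicate block (Egr2) and 0 to 1 leaving out 1 array. In N1c_RBPJdel against N1c the 1 call became 0 with quantile normalization, cyclic loess, the compared groups alone, the replicate block and arrays numbered 1 to 3. It became 2 among brighter genes and with trend and robust (Nr4a1 joins), and 0 to 2 leaving out 1 array. The members' median there was -0.53, but -0.15 on arrays numbered 1 to 3 and -0.30 with the replicate block. In N1c_RBPJdel against control calls numbered 0, but 1 with the replicate block (Jun, 1.18, adjusted p = 0.00411), 2 on arrays numbered 1 to 3 and 0 to 2 leaving out 1 array. In N1c_RBPJdel against RBPJdel they numbered 0, but 1 with the block (Jun, 1.04, adjusted p = 0.0109). In the interaction they numbered 0, and 0 to 1 leaving out 1 array (1 without N1c_RBPJdel 2, Egr1). These other genotypes did not meet the rule for pairing by number. The cause of these moves was not tested.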

Other observations

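A group of genes that are not immediate early genes was high on the same arrays. These were chosen after their values were seen. Fabp2, a fatty acid binding protein gene known from the intestine, had 133.3 and 90.1 on the N1c arrays numbered 4 and 5, 84.3 on the RBPJdel array numbered 4, and 885.7 and 172.1 on the control arrays numbered 4 and 5. It had 20.9 to 29.3 on N1c_RBPJdel arrays and 20.7 to 29.4 on the 7 MoFlo arrays numbered 1 to 3. Its within-genotype standard deviation was rank 4 of all genes. Anpep, an aminopeptidase of gut and myeloid cells, had 117.8 to 783.6 against 45.0 to 69.3, and Zg16, a goblet cell lectin, 130.2 to 624.8 against 36.4 to 62.5. On N1c_RBPJdel arrays Anpep had 61.6 to 75.8, and Zg16 had 55.7, 103.3 and 41.9, so that array 2 lay above the 7. For all 3 control array 4 was the highest, whereas for Fos, Fosb, Jun and Junb it was N1c array 4. Fabp1 had 20.2 to 36.3 against 14.3 to 18.6, and 18.0 to 21.0 on N1c_RBPJdel arrays. No test was made of these genes.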
